A study of Mus musculus with 6 samples.

Results

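The cytokines of the IL-6, IL-10 and IL-12 families are secreted signals through which dendritic cells and other myeloid cells steer T cells and inflammation. They were followed here as 8 genes chosen by symbol in the probe annotation, Il6, Lif, Osm, Il10, Il12a, Il12b, Il23a and Ebi3, which are represented by 10 of the 45101 probe sets on the arrays and are 8 of the 18193 genes measured. All 8 had at least 1 probe set with a single gene symbol, and Il12b and Lif had 2 each. Expression was measured on 6 Affymetrix arrays, with 2 arrays in each of 3 groups, and total RNA came from bulk cultures of C57BL/6 mouse bone marrow. In GM-TNFa-DC the progenitors (GM-MPP) had been turned into dendritic cells by GM-CSF together with TNFa, a cytokine of inflammation. GM-DC are the dendritic cells that GM-CSF gave without TNFa. GM-MPP are multipotent progenitors grown with stem cell cytokines plus GM-CSF, so GM-CSF was present in all 3 groups. The sources used here give no doses, culture times, sort, or number and age of the animals. The arrays of each group carry the numbers 1 and 2, and the labels do not say whether these stand for separate cultures or animals, so p-values cover only variation among these arrays, and that variation may be technical.

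IL-6, LIF and oncostatin M (Osm) signal through receptors that share the chain gp130, encoded by Il6st, and act mainly through STAT3. IL-10 restrains dendritic cells and macrophages through a receptor made of Il10ra and Il10rb. The IL-12 family cytokines are pairs of subunits made by separate genes: Il12a with Il12b forms IL-12, Il23a with Il12b forms IL-23, and Ebi3 pairs with the p28 subunit to form IL-27 or with Il12a to form IL-35. IL-12 drives interferon-producing T cells through STAT4, and IL-23 sustains IL-17-producing T cells. In dendritic cells Il12b and Il6 are classical genes of activation through Toll-like receptors and NF-kB.

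Values are log2 expression levels, on which 1 unit is a doubling, with array medians between 4.67 and 4.77. As a level for genes that blood cells are not known to use, the 95th percentile of 44 olfactory receptor probe sets was taken on each array, and it lay between 4.52 and 4.99. A fold change against a level near or below it is compressed and not exact. As a check of the labelled cell types, 11 of 14 dendritic cell markers were higher in GM-DC than in GM-MPP and 6 of 10 progenitor markers were lower (limma, Benjamini-Hochberg adjusted p under 0.05), and the same counts held for GM-TNFa-DC against GM-MPP. Without GM-MPP 1 or GM-MPP 2, 2 of these 11 dendritic cell markers were still called in either comparison, without GM-DC 1 or GM-DC 2 it was 2 or 5 in GM-DC, and without GM-TNFa-DC 1 it was 5 in GM-TNFa-DC. Of the 6 progenitor markers, Hoxa9 alone held in GM-DC without either GM-MPP array, and Flt3 held in neither comparison whichever array was left out. Neutrophil markers fell too, 7 of 12 in GM-TNFa-DC and 5 of 12 in GM-DC, with median changes of -5.10 and -4.00. Their summed linear level (2 to the power of each log2 value) was 5490 and 12667 in GM-TNFa-DC and 16468 and 14711 in GM-DC, against 89053 and 103454 in GM-MPP. Mast cell and basophil markers fell for 4 of 12 in GM-TNFa-DC and 2 of 12 in GM-DC. The part of these cells in the cytokine levels was not tested. In bulk cultures, fewer cells of a type and less RNA per cell cannot be told apart.

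No cytokine gene passed the test between any pair of groups, but they parted into 3 kinds by level. Ebi3 and Osm were above the olfactory receptor level on all 6 arrays, as were 53.9% of all genes. Il10 and Il23a were above it on none, as were 33.0% of all genes. Il6, Il12a, Il12b and Lif crossed it, and of these Il6, Il12a and Lif differed more between the arrays of 1 dendritic cell group than between groups. Lif barely crossed it, on the number-2 arrays of GM-TNFa-DC (5.00 against a level of 4.99) and GM-DC (4.86 against 4.80). The second Lif probe set was above it on no array.

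**Figure D1:**
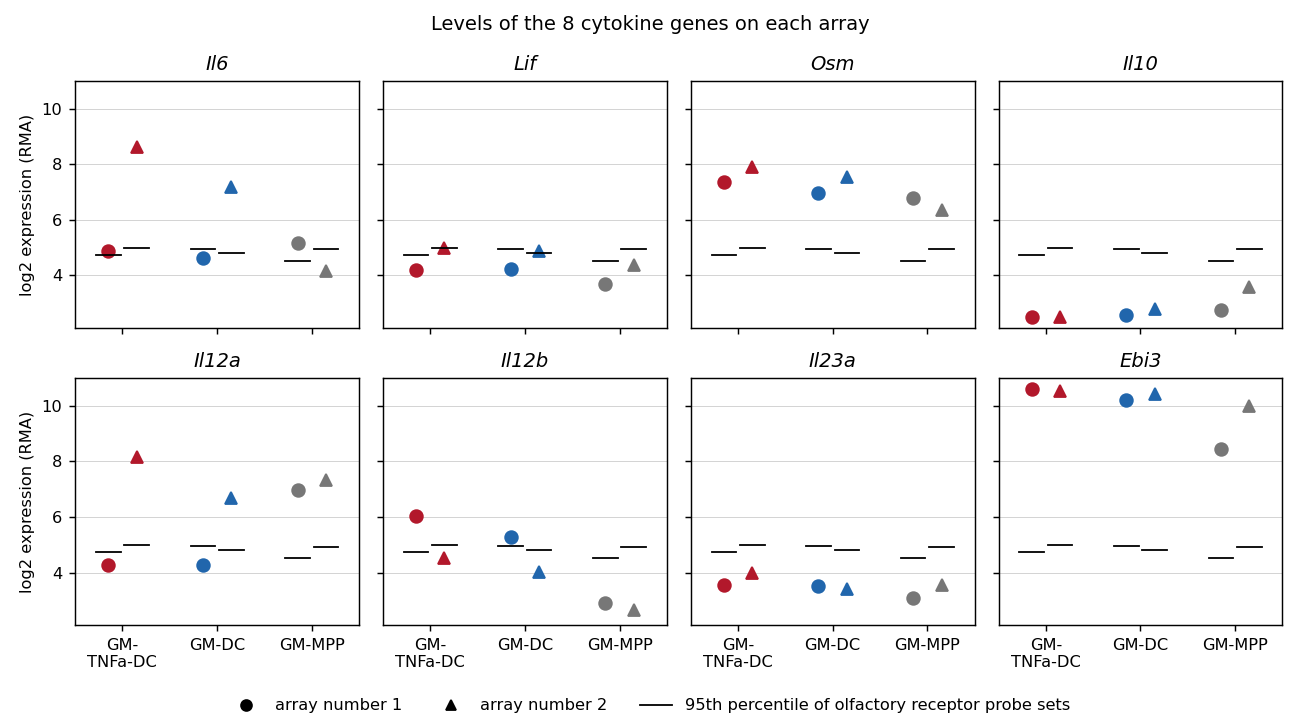
Log2 expression (vertical axis) of the 8 genes on each array, by group (horizontal axis), for the probe set with the highest mean of each gene. Circles are number-1 and triangles number-2 arrays, and black bars mark the 95th percentile of olfactory receptor probe sets on that array. Il6 and Il12a stand high on the number-2 dendritic cell arrays (8.63 and 7.17 for Il6), Il12b stands higher on the number-1 arrays, and Ebi3 lies between 8.45 and 10.58 everywhere.

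Among the ligands of gp130 receptors, Il6 spanned the widest range of the 8 genes. On arrays 1 and 2 it stood at 4.86 and 8.63 in GM-TNFa-DC, at 4.64 and 7.17 in GM-DC and at 5.15 and 4.16 in GM-MPP. Both number-2 dendritic cell arrays were high, while the number-1 dendritic cell arrays lay among the progenitor values, so all 3 groups overlapped. The log2 change was 1.25 ± 1.39 (SE) for GM-DC against GM-MPP (limma adjusted p = 0.661), with a 95% interval from -2.21 to 4.71, and 2.09 ± 1.39 for GM-TNFa-DC against GM-MPP (adjusted p = 0.403). These 2 comparisons share the GM-MPP arrays. Within array number 2 the differences were 3.01 and 4.47, and within number 1 they were -0.51 and -0.29.

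Osm, which encodes oncostatin M, was measured well above background throughout. Its levels were 7.36 and 7.88 in GM-TNFa-DC, 6.96 and 7.56 in GM-DC and 6.78 and 6.36 in GM-MPP. Every dendritic cell array lay above both progenitor arrays, while the dendritic cell groups overlapped. The change was 0.69 ± 0.32 for GM-DC and 1.05 ± 0.32 for GM-TNFa-DC against GM-MPP, a 2.07-fold difference in GM-TNFa-DC, and neither passed (limma adjusted p = 0.291 and 0.117). Lif, which encodes leukemia inhibitory factor and is the chromosomal neighbour of Osm, was dim. Its brighter probe set read 4.21 and 5.00 in GM-TNFa-DC, 4.24 and 4.86 in GM-DC and 3.70 and 4.36 in GM-MPP. Its second probe set stayed between 3.81 and 4.22 on all arrays, below the olfactory receptor level, and did not follow the first. The Lif change for GM-DC against GM-MPP was 0.52 ± 0.38 (limma adjusted p = 0.490).

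Il10, the anti-inflammatory member, was at or near the floor of the arrays. It read 2.52 and 2.52 in GM-TNFa-DC, 2.56 and 2.80 in GM-DC and 2.74 and 3.57 in GM-MPP. No value came within 1 unit of the olfactory receptor level, so Il10 was not distinguishable from background and no order of the groups is read from it. Il23a, the p19 subunit of IL-23, read 3.57 and 3.99 in GM-TNFa-DC, 3.51 and 3.42 in GM-DC and 3.08 and 3.54 in GM-MPP. All 6 values were below the olfactory receptor level.

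Il12b, the p40 subunit shared by IL-12 and IL-23, had the lowest p of the 8 genes in both comparisons of dendritic cells with progenitors. Its levels were 6.04 and 4.52 in GM-TNFa-DC, 5.29 and 4.01 in GM-DC and 2.92 and 2.67 in GM-MPP. All 4 dendritic cell arrays stood above both progenitor arrays, and the dendritic cell groups overlapped. The change was 1.85 ± 0.61 for GM-DC against GM-MPP (95% interval 0.35 to 3.36) and 2.48 ± 0.61 for GM-TNFa-DC against GM-MPP (0.98 to 3.99). Neither passed over all genes (limma adjusted p = 0.159 and 0.0727). Within array numbers 1 and 2 the differences were 2.37 and 1.34 for GM-DC and 3.12 and 1.85 for GM-TNFa-DC, all positive. The second Il12b probe set gave 1.28 ± 0.48 and 1.67 ± 0.48 when all probe sets were tested, in the same direction (limma adjusted p = 0.238 and 0.122). Only the number-1 dendritic cell arrays, at 6.04 and 5.29, exceeded the olfactory receptor level. The number-2 dendritic cell readings and both GM-MPP readings lay below it. No order of the groups is therefore read within number 2, and the size of the changes is not exact.

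Il12a, the p35 subunit, did not follow its partner. It read 4.28 and 8.14 in GM-TNFa-DC, 4.28 and 6.67 in GM-DC and 6.98 and 7.33 in GM-MPP. The progenitors and the number-2 dendritic cell arrays carried clear signal, while both number-1 dendritic cell arrays fell below the olfactory receptor level. The change was -1.68 ± 1.37 for GM-DC and -0.95 ± 1.37 for GM-TNFa-DC against GM-MPP (limma adjusted p = 0.537 and 0.708). Within array number 1 both differences were -2.71, and within number 2 they were -0.66 and 0.81.

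Ebi3, a subunit of IL-27, was far above the olfactory receptor level on every array. Its levels were 10.58 and 10.54 in GM-TNFa-DC, 10.22 and 10.44 in GM-DC and 8.45 and 9.99 in GM-MPP. The 3 groups did not overlap, and the order was GM-TNFa-DC, GM-DC, GM-MPP. The step between the dendritic cell groups was 0.23 ± 0.49, within the error. The change was 1.11 ± 0.49 for GM-DC and 1.34 ± 0.49 for GM-TNFa-DC against GM-MPP, or 2.15-fold and 2.53-fold, and did not pass (limma adjusted p = 0.271 and 0.170). The GM-MPP arrays differed by 1.54, more than the GM-DC mean differed from the GM-MPP mean. Its IL-27 partner p28 was not analysed here.

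Counted together, 0 of the 8 genes were called in GM-DC against GM-MPP (limma), where 4.50% of all genes were, 1.87% higher and 2.63% lower. In GM-TNFa-DC against GM-MPP 0 were called, where 7.03% of all genes were, 2.77% higher and 4.26% lower. At an unadjusted p under 0.05 they were 1, Il12b, and 3, Il12b, Ebi3 and Osm. In GM-DC against GM-MPP the arrays did not overlap for 3 genes that were higher, Il12b, Ebi3 and Osm, and for 1 that was lower, Il12a, against 55.3% of all genes, 28.3% higher and 27.0% lower. In GM-TNFa-DC against GM-MPP they did not overlap for 4 higher genes, with Il23a added, and for Il10 as the lower one, against 57.6% of all genes, 31.6% higher and 26.1% lower. These shares lie near the background. Il23a and Il10 were below the olfactory receptor level on every array, so no order of the groups is read from them. The median log2 change of the 8 genes was 0.61 in GM-DC and 0.81 in GM-TNFa-DC against GM-MPP, beside 0.02 and 0.05 over all genes.

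Adding TNFa moved none of the 8 genes past the test. In GM-TNFa-DC against GM-DC, 0 of 8 were called (limma adjusted p = 1.00 for each), as were 0% of all genes, and 0 of the 8 had an unadjusted p under 0.05. The largest differences were Il6 at 0.84 ± 1.39, Il12a at 0.74 ± 1.37 and Il12b at 0.63 ± 0.61, with errors that include the spread between the array numbers. Within array number 2, Il6 was 1.46 and Il12a 1.47 higher with TNFa, while within number 1 they were 0.22 higher and 0.00 apart. On number 1 Il12a was below the olfactory receptor level in both groups and Il6 lay near it, so a difference could not be read there. Il12b was 0.75 higher within number 1 and 0.51 within number 2, and Osm 0.40 and 0.33 higher. The number-2 readings of Il12b were below the olfactory receptor level. The arrays did not overlap for Ebi3 and Il23a, both higher, and Il10, lower, against 25.5% of all genes, 14.9% higher and 10.6% lower. Of these, Il23a and Il10 were below the olfactory receptor level on every array, so no order of the groups is read from them. The median change of the 8 genes was 0.34, beside 0.01 over all genes. It lies between Il23a (0.31) and Osm (0.36), so it rests in part on a gene at background.

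**Figure D2:**
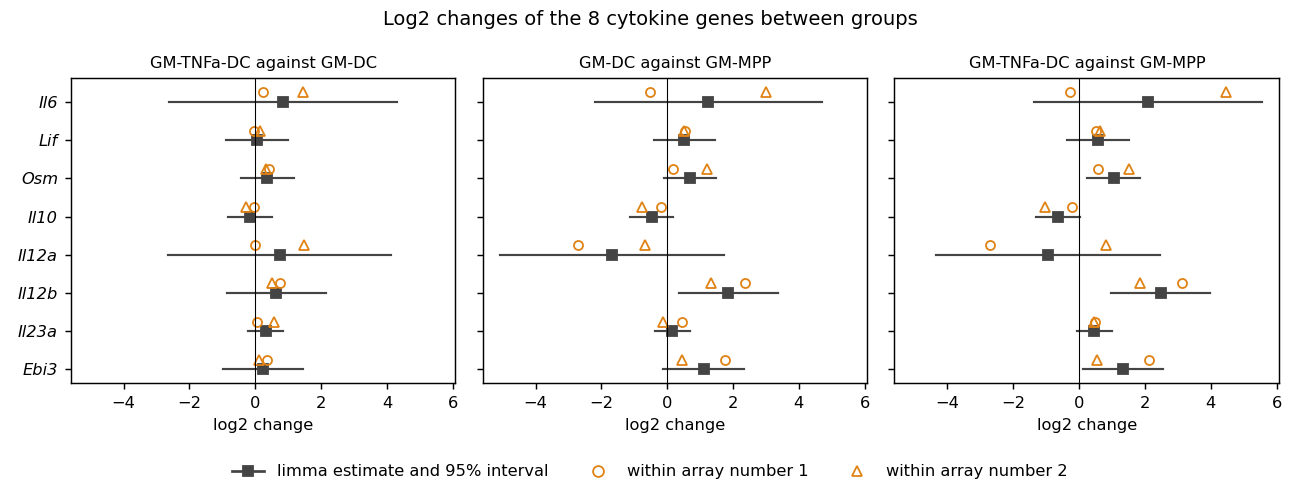
Log2 change (horizontal axis) of the 8 genes (vertical axis) in the 3 comparisons, with the limma estimate and its 95% interval (squares and lines) and the difference within each array number (open circles and triangles). The Il12b interval lies above 0 in both comparisons with GM-MPP (from 0.35 and from 0.98). The Il6 and Il12a intervals are several units wide and include 0 in all 3 comparisons.

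Some cytokine genes differed between number-2 and number-1 dendritic cell arrays. Il6 and Il12a were high on number 2 and Il12b on number 1, in GM-TNFa-DC and GM-DC alike. The comparison was fitted on the 4 dendritic cell arrays with the group as a block, which leaves 1 residual degree of freedom, and was chosen with this split known. Of the 8 genes 3 were higher and 1 lower on number 2 (limma adjusted p under 0.05), where 11.8% of all genes were called, 6.41% higher and 5.41% lower. The arrays did not overlap for 4 genes that were higher, Il6, Il12a, Lif and Osm, and for Il12b, which was lower, against 55.4% of all genes, 29.8% higher and 25.6% lower. The median log2 change of the 8 genes was 0.36, beside 0.03 over all genes. It lies between Il23a (0.16), which was at background, and Osm (0.56).

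Il6 read 8.63 and 7.17 on the number-2 arrays of GM-TNFa-DC and GM-DC, against 4.86 and 4.64 on number 1. It was 3.15 ± 0.31 higher, an 8.87-fold difference (limma adjusted p = 0.00729). Il12a was 3.13 ± 0.36 higher (adjusted p = 0.0108), with 8.14 and 6.67 on number 2 against 4.28 and 4.28 on number 1. Both genes were near or below the olfactory receptor level on number 1 and well above it on number 2, so these folds may be compressed. Lif was 0.70 ± 0.14 higher (limma adjusted p = 0.0429), with all 4 values at or below 5.00 and no such difference in its second probe set (-0.01 ± 0.23). Osm was 0.56 ± 0.14 higher and missed the threshold (adjusted p = 0.0708), although the arrays did not overlap. Il12b was lower by 1.40 ± 0.15 (a log2 change of -1.40, limma adjusted p = 0.00901), with 4.52 and 4.01 on number 2 against 6.04 and 5.29 on number 1. Its second probe set differed in the same direction (-0.98 ± 0.18, adjusted p = 0.0396). Ebi3 differed by 0.08 ± 0.13, with an interval from -0.25 to 0.42.

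The progenitor arrays did not show this split at the size seen in dendritic cells. Between GM-MPP 2 and GM-MPP 1, Il6 differed by -0.99 and Osm by -0.42, opposite to the dendritic cells. Il12a, at 0.35, and Il12b, at -0.25, differed in the same direction but by less, and Lif, at 0.66, by a similar amount. Il12b (2.92 and 2.67) and Lif were below the olfactory receptor level on both GM-MPP arrays, so a split in them could not be read there. With 1 pair, the difference between progenitors and dendritic cells in this respect was not tested.

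**Figure D3:**
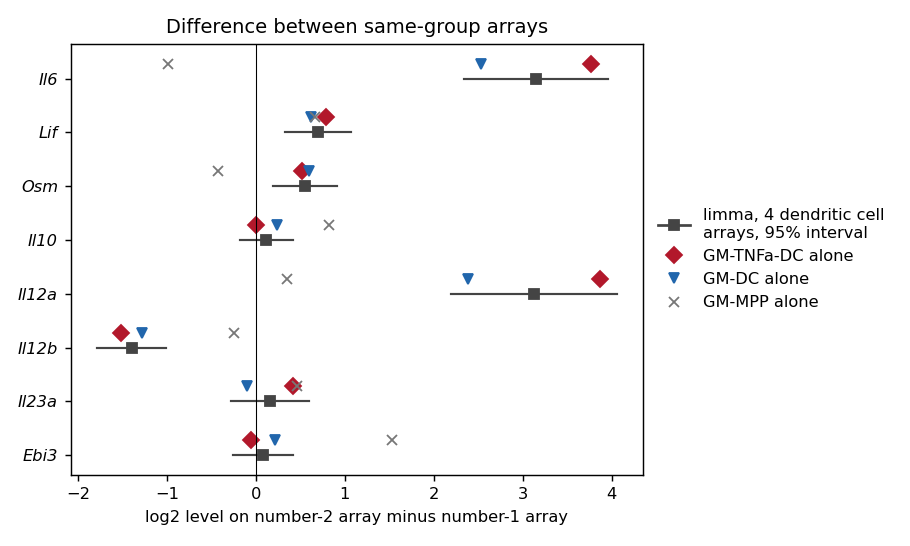
Log2 level on the number-2 array minus that on the number-1 array (horizontal axis) for the 8 genes (vertical axis). Squares and lines are the limma estimate over the 4 dendritic cell arrays with its 95% interval, and the coloured symbols give each group alone. Il6 and Il12a lie near 3 in the dendritic cells, Il12b lies at -1.40, and Ebi3 differs only in GM-MPP, by 1.54.

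Because Il6 and Il12a moved against Il12b between the array numbers, the sequences just before their transcript starts are shown. They are the 250 bases upstream in RefSeq, build GRCm38.p6, plus strand, 5′ to 3′, with matches to any of 5 motifs in capitals. RefSeq lists a second transcript start for Il12a, whose upstream bases also hold no match. 5 of the 8 genes had an entry.
Il6, chr5:30012864-30013113: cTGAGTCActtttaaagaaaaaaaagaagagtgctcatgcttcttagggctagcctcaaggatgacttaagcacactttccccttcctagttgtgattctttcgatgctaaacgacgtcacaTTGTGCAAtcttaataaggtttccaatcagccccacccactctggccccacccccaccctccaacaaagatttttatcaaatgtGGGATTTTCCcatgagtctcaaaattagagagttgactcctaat
Il12a, chr3:68690394-68690643: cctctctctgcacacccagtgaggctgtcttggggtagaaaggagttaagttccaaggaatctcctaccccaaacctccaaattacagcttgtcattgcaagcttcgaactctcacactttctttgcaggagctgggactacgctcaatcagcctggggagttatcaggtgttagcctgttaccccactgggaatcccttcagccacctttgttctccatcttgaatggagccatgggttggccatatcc
Il12b, chr11:44399813-44400062: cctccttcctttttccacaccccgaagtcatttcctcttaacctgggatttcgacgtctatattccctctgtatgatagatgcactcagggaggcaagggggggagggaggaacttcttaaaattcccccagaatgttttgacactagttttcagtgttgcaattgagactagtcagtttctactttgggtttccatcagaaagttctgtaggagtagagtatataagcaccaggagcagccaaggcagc

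The motifs were the AP-1 element TGANTCA, the C/EBP element TTNNGCAA, the interferon regulatory factor element (GAAA, 2 free bases, GAAA), the TATA box TATAAA and the 10-base NF-kB consensus, searched on both strands. The Il6 window held an AP-1 match, a C/EBP match and, from 44 bases before the start, an NF-kB match, and none of these overlap. Among 32851 promoters of the same length, 6.75% held the AP-1, 9.56% the C/EBP, 2.98% the interferon regulatory factor, 12.4% the TATA and 7.25% the NF-kB motif. The Il12a and Il12b windows held no match to these letters, the Ebi3 window an NF-kB match and the Lif window an AP-1 and an NF-kB match. A match is a description of letters and not a measured site. A window without a match may still hold sites that differ from these letters.

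The receptor genes were read beside the ligands. Of 15 measured receptor chains, Il10ra, the ligand-binding chain for IL-10, alone was called higher against GM-MPP, in GM-DC and in GM-TNFa-DC. Of all genes 1.87% and 2.77% were called higher in these comparisons. Il12rb2 was higher by 1.45 and 1.91 there but was not called. Il10ra stood at 7.64 and 7.28 in GM-TNFa-DC, 6.82 and 7.02 in GM-DC and 4.77 and 5.22 in GM-MPP. The change was 1.92 ± 0.25 for GM-DC and 2.46 ± 0.25 for GM-TNFa-DC against GM-MPP (limma adjusted p = 0.0214 and 0.00990), and no arrays of these pairs overlapped. Without GM-MPP 1 or GM-MPP 2 neither call held (adjusted p between 0.0614 and 0.141), and without GM-DC 1 or GM-DC 2 the GM-DC call was lost (0.0946 and 0.0984). Il10ra transcript was thus higher in dendritic cells, where Il10 itself was not distinguishable from background. The list's median change was 0.05 in GM-DC against GM-MPP, beside 0.02 over all genes. Il6ra, the specific chain for IL-6, missed the threshold in GM-TNFa-DC against GM-MPP (a log2 change of -2.18 ± 0.48, limma adjusted p = 0.0596), with 6.46 and 5.24 in GM-TNFa-DC, 6.74 and 6.76 in GM-DC and 7.58 and 8.48 in GM-MPP.

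Between number-2 and number-1 dendritic cell arrays, 2 receptor chains were higher and 2 lower. Il6st, the gp130 chain through which IL-6, LIF and oncostatin M signal, was at 6.69 and 6.93 on number 2 against 8.96 and 8.74 on number 1 (GM-TNFa-DC and GM-DC, change -2.05 ± 0.17, limma adjusted p = 0.00475). Il6 and Il6st thus ran opposite ways between the numbers. Il12rb2, a signalling chain of the IL-12 receptor, was lower with Il12b (-1.55 ± 0.20, adjusted p = 0.0150), while Il12rb1, which binds p40, was higher (0.89 ± 0.17, adjusted p = 0.0373). Il20rb, a chain for the IL-20 branch of the IL-10 family, was higher too (1.13 ± 0.16, adjusted p = 0.0162). Of 5 signal transducers, Jak2, Tyk2 and Stat4 were lower on number 2 and none was higher, and the median was -1.05 beside 0.03 over all genes. Stat4, which carries the IL-12 signal, changed by -1.65 ± 0.13.

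Of 10 feedback and STAT3 target genes, 0 were called in GM-DC against GM-MPP, although 3 were called higher in GM-TNFa-DC against GM-MPP (limma). These were Socs1 (2.04 ± 0.34) and Socs3 (1.98 ± 0.39), inhibitors of cytokine receptor signalling, and Junb (1.97 ± 0.40), a subunit of AP-1. Each of these 3 calls was lost whichever array was left out (limma adjusted p between 0.0515 and 0.144). The list's median change was 1.17 in GM-TNFa-DC against GM-MPP. Between number-2 and number-1 dendritic cell arrays Fos was higher (1.97 ± 0.16) and Cish, Bcl6 and Cebpd lower. None of the 6 other measured ligands of these families, Il11, Clcf1, Ctf1, Il20, Il24 and Il31, was called in any comparison, and their median change in GM-DC against GM-MPP was 0.14. Il11 lay between 5.14 and 5.30 on all 6 arrays.

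Of 23 measured genes listed as regulators of Il12b, Il6 or Il10 expression, Irf4 and Atf3 were called higher in GM-DC against GM-MPP (limma). In GM-TNFa-DC against GM-MPP, Irf4, Irf5, Irf8, Atf3 and Ets2 were called higher. The list's medians were 0.27 and 1.05. Irf8, an interferon regulatory factor that drives Il12b in myeloid cells, stood at 10.99 and 9.43 in GM-TNFa-DC, 9.91 and 9.43 in GM-DC and 5.80 and 7.32 in GM-MPP (3.64 ± 0.69 for GM-TNFa-DC against GM-MPP, adjusted p = 0.0411). Atf3, a factor that restrains Il6 and Il12b in macrophages, was 3.57 ± 0.26 higher in GM-DC (limma adjusted p = 0.00519) and, without GM-MPP 2, missed the threshold there (0.0582). The other calls were less stable: Irf5 lost its call whichever array was left out, Irf8 kept it only without GM-TNFa-DC 2, and Ets2 only without GM-DC 1 or GM-DC 2. Irf4 lost it without either GM-MPP array, in GM-DC also without GM-DC 1 or GM-DC 2, and in GM-TNFa-DC also without GM-TNFa-DC 1.

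Between number-2 and number-1 dendritic cell arrays 4 of these regulators were higher and 8 lower. Higher were Irf7 (3.81 ± 0.14), a factor of the interferon response, Maf (2.09 ± 0.15), an activator of Il10, Nfkbiz (1.22 ± 0.17), an NF-kB cofactor needed for Il6, and Cebpb (0.90 ± 0.14), an activator of Il6. Among the lower were Cebpa (-2.30 ± 0.14), the NF-kB subunits Relb (-1.80 ± 0.22) and Nfkb2 (-1.26 ± 0.21), and Irf4 (-1.20 ± 0.14), with limma adjusted p between 0.00187 and 0.0258 for these 8 genes. The part of these regulators in the cytokine differences was not tested. Of 15 genes for sensors and adaptors, Tlr3 and Tnfrsf1b were called higher in GM-DC and Ly96 and Tnfrsf1b in GM-TNFa-DC against GM-MPP (limma). The GM-TNFa-DC calls were lost whichever array was left out, and the GM-DC calls when any single GM-MPP or GM-DC array was left out. Between the array numbers 5 were higher on number 2 and 1 was lower. Cd14, the co-receptor for bacterial lipopolysaccharide, read 13.18 and 12.50 on number 2 against 8.50 and 7.48 on number 1, a change of 4.85 ± 0.14 (limma adjusted p = 0.00187). Irak3, an inhibitor of Toll-like receptor signalling, differed by 2.23 ± 0.14. Tlr7 differed by 1.47 ± 0.25, Tlr4, the lipopolysaccharide receptor, by 1.02 ± 0.13 and Tlr2 by 0.76 ± 0.11. Myd88, their shared adaptor, was the lower one (-0.84 ± 0.14). The list's median was 0.23.

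Markers of cell types moved with this split as well. Of 14 dendritic cell markers 13 were lower on number 2, the direction of Il12b, with a median of -1.67. Their summed linear level was 26759 and 20523 on number 2 against 79438 and 58331 on number 1 (GM-TNFa-DC and GM-DC). Of 13 monocyte and macrophage markers C1qa, C1qc and Fcgr1 were higher and Mertk and Mrc1 lower, with sums of 32425 and 32283 against 26263 and 33573. Of 12 stromal and endothelial markers Pecam1, Kdr and Dcn were higher, with sums of 599 and 573 against 314 and 361, while Col1a1, Col3a1, Pdgfra and Cdh5 were above the olfactory receptor level on no array. Plasmacytoid dendritic cell markers had 2 of 9 higher and 1 lower, with sums of 1414 and 1209 against 986 and 696. Of 10 progenitor markers Gfi1 was higher and Kit and Sox4 lower, with sums of 790.2 and 715.4 against 1483 and 1427. Of 12 neutrophil markers 3 were higher and 5 lower, with sums of 12667 and 14711 against 5490 and 16468. In the mast cell and basophil list 1 of 12 was lower, with sums of 458 and 405 against 462 and 622. In the lymphocyte list 1 of 14 was lower, with sums of 442 and 400 against 559 and 435, and 8 of the 14, Cd3g, Cd3d, Cd79a and Pax5 among them, were above the olfactory receptor level on no array. The part of other cells in the cytokine differences was not tested.

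**Figure D4:**
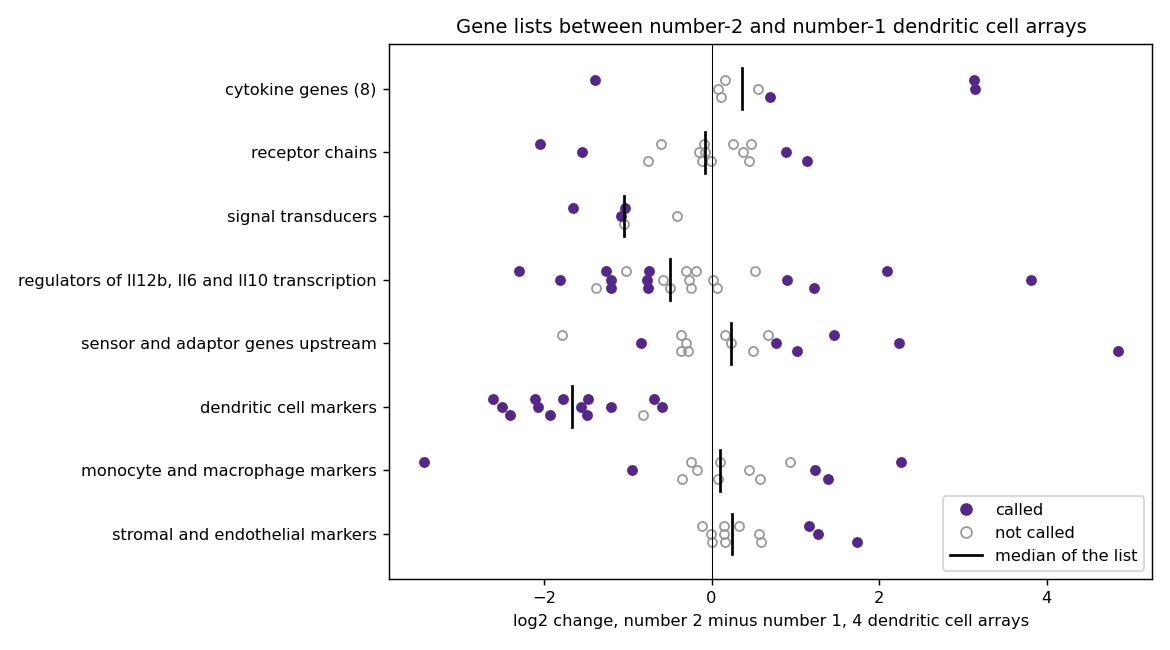
Log2 change between number-2 and number-1 dendritic cell arrays (horizontal axis) for each gene of 8 lists (vertical axis), with called genes filled, others open and the median of each list as a black bar. Of the 8 cytokine genes 3 are called higher and 1 lower, and 13 of 14 dendritic cell markers are called lower, with a median of -1.67.

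The genes most like each cytokine gene were sought by Pearson's r over the 6 arrays among 1956 other genes that span at least 2 log2 units, or 10.8% of all, and are given as a description. Points that share a group and an array number are not independent, and with 6 arrays high values arise easily among so many genes. Il6, Il12a, Il12b and Ebi3 spanned that range. Most like Il6 were Ppp1r12b (r = 0.984), Uchl1 (0.984) and U90926 (0.983). Il12a was most like Rab33a (0.992), Map2k6, a kinase upstream of p38 (0.967), and Sgms2 (0.967). For Il12b they were Ssh1 (0.999), a cofilin phosphatase, Traf5 (0.996), a TNF receptor adaptor, and Gm266 (0.996). Traf5 read 8.22 and 6.39 in GM-TNFa-DC, 7.62 and 6.04 in GM-DC and 4.69 and 4.56 in GM-MPP, high on number 1 like Il12b and well above the olfactory receptor level in the dendritic cells. Ebi3 was most like Irf9, part of the interferon signalling complex (0.989), Csf1r, the receptor for the growth factor M-CSF (0.981), and Ddit3, a stress response factor (0.973). Like Ebi3, these genes read lowest on GM-MPP 1, at 6.03, 8.98 and 7.66 against 7.40, 11.38 and 8.68 on GM-MPP 2. That array weighs heavily in their r.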

How the data were processed

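Total RNA of 6 samples was labelled with a one-cycle kit and hybridised to Affymetrix arrays, per the labels' protocols. The deposited values are log2 expression levels per probe set, made by the authors with RMA (background correction, quantile normalization and summary of probes), per the submitters' processing notes, and with Bioconductor, per the labels. The log2 scale was inferred from their range of 1.89 to 14.43, and no version is stated. The number of arrays limits the precision, and no detection call was used.

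Of 45101 probe sets, 34945 had 1 gene symbol in the platform annotation, 932 had several and 9160 none listed. Symbols were updated through Entrez identifiers to RefSeq (GRCm38.p6), in which 34741 matched. For each gene the probe set of highest mean level was kept, leaving 18193 genes. Groups were compared in R 4.3.3 by limma 3.58.1 (lmFit, then eBayes allowing a trend with intensity, 1 spread for the 3 groups, Benjamini-Hochberg adjustment over all genes, threshold 0.05), after a test on simulated data. Errors after ± are moderated SEs. Tables were prepared with Python 3.11.15 and plots with matplotlib 3.10.9. The members, the lists, the alternatives and the comparison of array numbers were chosen with earlier results of these data known. Named were all 8 genes with every probe set, called genes of each list with the largest changes, genes paired with a cytokine as receptor or subunit, and the 3 most alike genes of each cytokine gene that spans 2 log2 units. Cd14, Tlr4, Tlr2, Myd88, Il11, C1qa and the other marker genes beyond these were named after their values were seen. Alternatives were other normalizations, filters, probe set rules, priors, sample sets, a replicate block, a 2-fold minimum and each array left out.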

Additional observations from a re-analysis of the deposited data

How the results depend on the processing

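Of the log2 changes of single cytokine genes, 133 kept their direction and side of the threshold with 1 array left out and 11 turned, while under the other alternatives 259 kept both, 3 gained a call and 2 lost it. With the array number as a replicate block, 1 cytokine gene was called in GM-DC against GM-MPP and 1 in GM-TNFa-DC against GM-MPP, against 0 otherwise, and both times it was Il12b, higher (log2 change 1.85 and 2.48, limma adjusted p = 0.0413 and 0.0197). Over all genes the block called 1476 and 2060 genes against 819 and 1279. Deviations of same-numbered arrays correlated at 0.806 between GM-DC and GM-TNFa-DC but at 0.105 and 0.0719 with GM-MPP. In the fit over all 3 groups the numbers were therefore not taken as pairs. The low values with GM-MPP do not bear on GM-TNFa-DC against GM-DC, where the numbers did move together. For GM-TNFa-DC against GM-DC, a block fitted on the 4 dendritic cell arrays alone, added after seeing the data, called 0 genes of 18193 (limma, 1474 at an unadjusted p under 0.05). Its errors were smaller, with 0.84 ± 0.31 for Il6, 0.74 ± 0.36 for Il12a, 0.63 ± 0.15 for Il12b and 0.36 ± 0.14 for Osm (adjusted p between 0.575 and 0.637), and 3 of the 8 genes, Il6, Il12b and Osm, had an unadjusted p under 0.05. Over all the alternatives, the Il12b adjusted p ranged from 0.0413 to 0.455 in GM-DC and from 0.0197 to 0.296 in GM-TNFa-DC against GM-MPP. With 1 array left out, 0 cytokine genes were called in any group comparison. All genes called then numbered 50 to 717 in GM-DC against GM-MPP and 91 to 760 in GM-TNFa-DC against GM-MPP, the lowest without a GM-MPP array (83 and 50, and 113 and 91, without GM-MPP 1 and 2), where fewer samples are fitted and the spread of a lone array is taken from the other groups. Over only the arrays compared, 749 genes were called in GM-TNFa-DC against GM-MPP. With every probe set tested the counts of probe sets were 1251, 2001 and, between the array numbers, 3242 against 2150 genes, where a 2-fold minimum left 1244.

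Leaving out 1 array turned the direction of 7 uncalled changes, which ranged from -0.013 to 2.52 for Il6 and from -0.077 to 0.39 for Il23a in GM-DC against GM-MPP, from -2.88 to 0.99 for Il12a in GM-TNFa-DC against GM-MPP, and, in GM-TNFa-DC against GM-DC, from -1.04 to 2.72 for Il6, -1.19 to 2.67 for Il12a, -0.13 to 1.39 for Il12b and -0.34 to 0.44 for Lif. Between the array numbers, Il6, Il12a and, where tested, Il12b were called under each alternative. Without dim genes 0 were lower, since Il12b was not tested. Lif lost its call with the mean of its probe sets (0.35, adjusted p = 0.251) and with every probe set tested (adjusted p = 0.0700), and Osm passed after a second quantile normalization (0.62, limma adjusted p = 0.0490). With 3 arrays that comparison has no residual degrees of freedom, so no array was left out of it.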

Other observations

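The 2 GM-MPP arrays differed in Ebi3 by 1.54, with 9.99 on GM-MPP 2 and 8.45 on GM-MPP 1. Csf1r, the M-CSF receptor, stood at 11.38 on GM-MPP 2 against 8.98 on GM-MPP 1. The complement genes C1qa (8.76 against 6.61) and C1qc (8.83 against 7.23), the adhesion molecule gene Vcam1 (7.47 against 5.16) and the scavenger receptor gene Cd163 (6.31 against 4.97) did so too. The summed linear level of 13 monocyte and macrophage markers was 18680 on GM-MPP 2 and 9968 on GM-MPP 1, with 11 of the 13 higher on GM-MPP 2. The difference was not particular to them. Also higher on GM-MPP 2 were 9 of 10 progenitor, 11 of 12 neutrophil, 8 of 9 plasmacytoid dendritic cell and 14 of 14 lymphocyte markers. The counts were 8 of 12 for mast cell and basophil, 7 of 12 for stromal and endothelial and 6 of 14 for dendritic cell markers. Of the 14 lymphocyte markers, 8 were above the olfactory receptor level on no array. The share of all genes higher on GM-MPP 2 was not counted. The sums were 5576 and 4214 for progenitor, 103454 and 89053 for neutrophil and 936.5 and 562.0 for plasmacytoid dendritic cell markers on GM-MPP 2 and GM-MPP 1. These genes were picked after their values were seen, and with 1 array on each side there is no replicate check.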
